A study of Arabidopsis thaliana with 12 samples.

Results

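CYN, SIS and AT4G13550 are 3 nuclear genes of Arabidopsis thaliana linked to stress, described here on an expression array. Each is the only gene annotated on its feature, and the 3 features are drawn from 692 with exactly 1 gene and 3439 in all. They were chosen with their higher level in recovering plants already known. That difference is therefore a description here, carries no test and supports nothing.

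All plants were wild type of the ecotype Columbia 0. The recovery plants had spent 1 h in darkness and were then returned to light, for 2 h according to the sample titles and for 1 h according to the source names. The light-adapted plants serve as the reference, and each group has 6 arrays of total RNA. As no array sampled plants still in the dark, the dark period cannot be told apart from the light that followed it. The labels name no organ or age and do not say whether the 6 arrays of a group came from separate plants, so the spread between arrays may be technical. None of the 23 markers of roots, flowers, pollen, seeds and guard cells looked for had a single-gene feature, which leaves the tissue without a marker check.

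The 3 genes act in unrelated steps of metabolism and stress physiology. CYN (AT3G23490, chromosome 3) encodes cyanase, the enzyme that lets cyanate react with bicarbonate to give ammonia and carbon dioxide, and so removes a toxic by-product of nitrogen metabolism. SIS (AT5G02020, chromosome 5) encodes a serine-rich protein and takes its name from its induction by salt. AT4G13550 (chromosome 4) encodes a heat-inducible lipase of the chloroplast, which releases polyunsaturated fatty acids from galactolipids of the thylakoid membrane when leaves become hot. Reference annotation lists 3, 2 and 3 transcripts for CYN, SIS and AT4G13550, and each feature gives 1 value per array, so isoforms were not resolved.

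The 12 arrays differed between the groups in their distribution of values. Median intensity was 0.0373 ± 0.00148 on the recovery arrays and 0.0919 ± 0.0145 on the light-adapted arrays (SD, n = 6 each), while 25.6% ± 2.21 and 19.96% ± 1.70 of the features stood at exactly 0. Summed intensity ran from 2288 to 3314 on the recovery arrays and from 2286 to 3265 on the light-adapted arrays. In both groups together it lay between 2539 and 2593 on arrays 1 and 2, between 3233 and 3314 on arrays 3 and 4, and between 2286 and 2316 on arrays 5 and 6. The labels do not say whether such neighbouring numbers are separate samples, so 6 arrays may stand for fewer. Levels are therefore given as deposited, and differences both on the deposited scale and after quantile normalization, which gives every array the same distribution of values. Over the 2364 features with enough measured values for a test, the median log2 difference was -0.82 on the deposited scale and -0.038 after normalization. In RNA pooled over many cells, fewer cells that hold a transcript and less transcript per cell cannot be told apart.

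CYN was several times brighter in the recovery plants, and its light-adapted level was the most uneven of the 3 genes. Its deposited intensity was lowest at 1.37, had a median of 1.47 and reached 2.03 on the recovery arrays, against a lowest value of 0.121, a median of 0.207 and a highest of 0.545 on the light-adapted arrays. The groups did not overlap. The mean was 1.55 ± 0.243 in recovery and 0.283 ± 0.171 in light-adapted plants (SD, n = 6 each).

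The CYN readings of light-adapted arrays 5 and 6 stood above those of the other four. Arrays 5 and 6 read 0.545 and 0.443, while arrays 1 to 4 read 0.173, 0.174, 0.240 and 0.121. On the normalized scale arrays 5 and 6 averaged 2.14 log2 units above arrays 1 to 4. Of the 1429 features measured above 0 on all 12 arrays, 12 had a larger shift, and the median shift was -0.035. Among recovery arrays the same comparison gave 0.32 for CYN. The high cyanase signal in 2 light-adapted arrays was thus not matched in the recovery arrays of the same numbers. This comparison of array numbers was chosen after the values were seen, and the labels give no meaning to the numbers.

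In recovery plants SIS varied more between arrays on the deposited log2 scale than the other two genes did, with an SD of 0.53 against 0.21 for each of them. Its recovery intensity ran from 0.264 through a median of 0.388 to 0.703, against 0.0574, 0.0825 and 0.126 as the lowest, median and highest light-adapted values. The lowest recovery array lay above the highest light-adapted array. Mean intensity was 0.441 ± 0.167 in recovery and 0.0873 ± 0.0238 in light-adapted plants (SD, n = 6 each). Recovery arrays 3 and 4 read highest, at 0.703 and 0.582, and recovery arrays 5 and 6 lowest, at 0.321 and 0.264. After normalization these 6 arrays drew together, to an SD of 0.23 on the log2 scale.

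The lipase gene AT4G13550 had the widest gap between the groups. It ran from 1.46 through a median of 1.76 to 2.05 on the recovery arrays, against 0.165, 0.236 and 0.301 on the light-adapted arrays. The lowest recovery value, 1.46, stood well clear of the highest light-adapted value, 0.301. Its mean was 1.75 ± 0.248 in recovery and 0.238 ± 0.0548 in light-adapted plants (SD, n = 6 each).

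**Figure D1:**
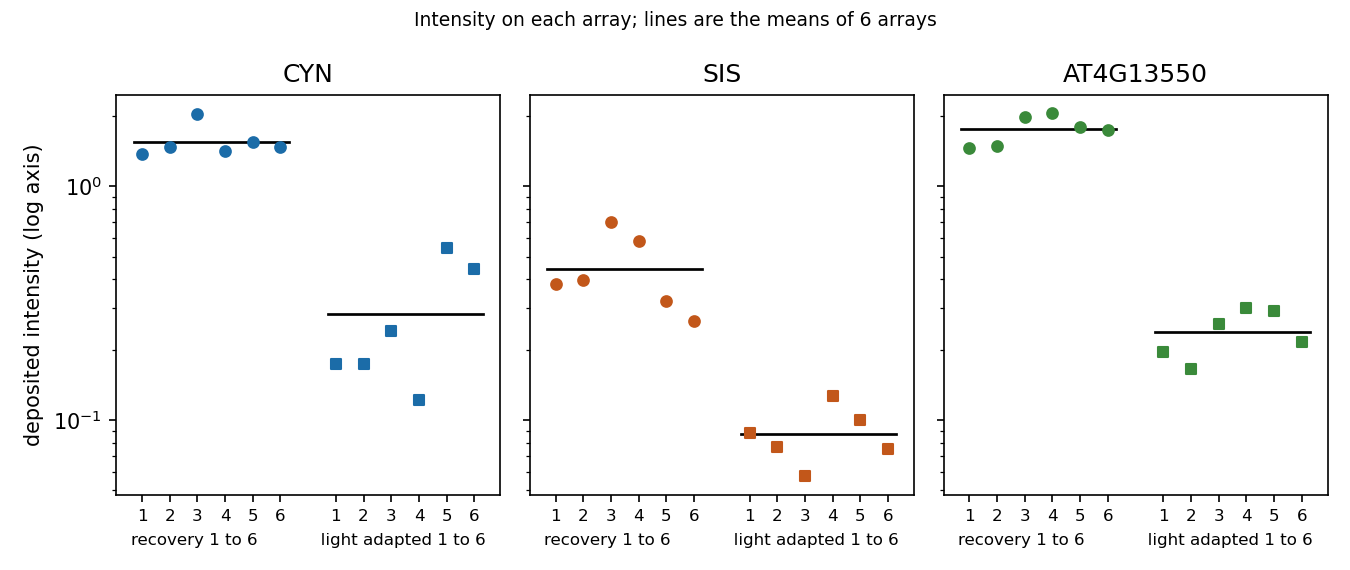
Deposited intensity (log axis) of CYN, SIS and AT4G13550 on recovery arrays 1 to 6 (circles) and light-adapted arrays 1 to 6 (squares), with a line at the mean of each group. The groups do not overlap for any of the 3 genes, and CYN on light-adapted arrays 5 and 6 (0.545 and 0.443) lies above light-adapted arrays 1 to 4.

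The groups were thus apart for 3 of 3 genes, in a comparison where the lowest recovery array lay above the highest light-adapted array for 6.85% of the 2364 features tested. Since the genes were chosen on this contrast, nothing is read from that count. All 3 had readings above 0 on 12 of 12 arrays, so none entered through missing values.

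The position of a feature within its own array does not depend on how that array was scaled. CYN stood at the 94.6 percentile of the 3439 features on the recovery arrays, with an SD of 0.566 points, against the 70.98 percentile with an SD of 13.2 points on the light-adapted arrays (n = 6 each). SIS stood at 86.3 ± 2.00 in recovery and 48.3 ± 6.99 in light-adapted plants, and AT4G13550 at 95.0 ± 0.489 and 71.5 ± 5.62. Ranks near the top of an array have less room to vary, so these SDs are not a comparison of spread between the groups. For CYN the light-adapted rank ran from 53.6 on array 4 to 87.8 on array 5.

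The choice of the genes rested on the difference between the groups, and a small spread within groups favours such a choice, so their spread is given as a description. In recovery plants the SD of normalized log2 intensity was 0.24 for CYN, 0.23 for SIS and 0.23 for AT4G13550, against a median of 0.39 over the 1429 features measured on every array. In light-adapted plants it was 1.16 for CYN, 0.41 for SIS and 0.42 for AT4G13550, against a median of 0.55. The recovery SDs of the 3 genes lay at the 27.4, 24.6 and 24.3 percentiles of these features. CYN alone of the 3 had an above-median spread in the light-adapted group, at the 87.4 percentile.

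Averaged over the arrays, the normalized difference, recovery minus light adapted, was 3.04 ± 0.461 log2 units for CYN, a fold of 8.24. SIS differed by 2.96 ± 0.223, a fold of 7.80, and AT4G13550 by 3.31 ± 0.227, a fold of 9.88 (SE from the limma fit over all features, n = 6 each). The 3 values lay within about an SE of CYN's of each other. Ranked from the largest rise, AT4G13550 was 3, CYN 5 and SIS 6 among the 452 single-gene features tested. Among all 2364 features tested the ranks were 26, 39 and 44, in the same order.

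On the deposited scale the differences were smaller, at 2.65 ± 0.358 for CYN, 2.30 ± 0.290 for SIS and 2.90 ± 0.219 for AT4G13550 (SE, n = 6 each). The ranks among single-gene features were then 3, 6 and 1, and among all features tested 28, 49 and 24. SIS moved most between the scales, with a fold of 4.92 as deposited and 7.80 after normalization. The tested features were put into 4 equal classes by mean normalized log2 intensity over the arrays, 591 in each. SIS lay in the second brightest class, whose median deposited difference was -0.75. CYN and AT4G13550 lay in the brightest, with a median of -0.069. Measured from the median of its own class, the deposited difference was 3.05 for SIS, 2.72 for CYN and 2.97 for AT4G13550. Set that way, the deposited values of the 3 genes were closer to each other than before.

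**Figure D2:**
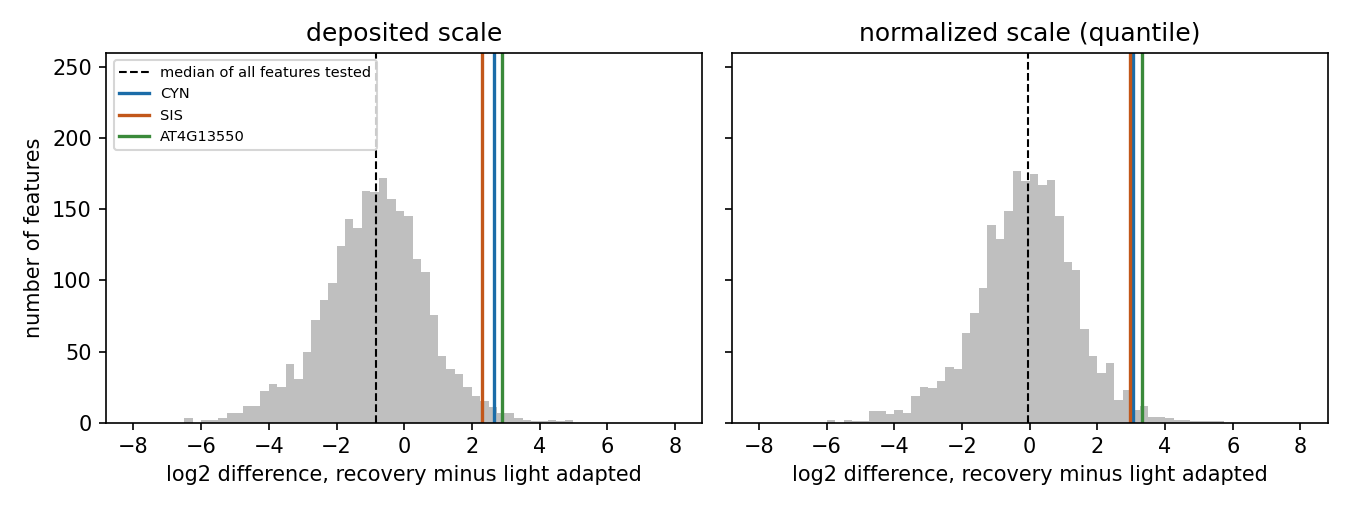
Number of features (of 2364 tested) by log2 difference, recovery minus light adapted, on the deposited scale (left) and after quantile normalization (right), in bins of 0.25. Coloured lines mark CYN, SIS and AT4G13550, which lie in the right tail on both scales, and the dashed line marks the median, at -0.82 and -0.038.

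Same-numbered arrays of the groups can be set against each other, and 6 of 6 pairs were higher in recovery for each gene on both scales. Since the groups did not overlap on either scale, any pairing would give this count, and nothing is read from it. AT4G13550 was the steadiest, between 2.61 in pair 5 and 3.16 in pair 2 on the deposited scale (mean 2.90 ± 0.193, SD, n = 6 pairs). After normalization it ran from 2.93 in pair 5 to 3.75 in pair 2 (3.31 ± 0.321). In fold terms the lipase gene was 6.10 to 8.97 times brighter in recovery on the deposited scale.

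CYN split into 4 large and 2 smaller pair differences. On the deposited scale pairs 1 to 4 gave 2.98, 3.08, 3.08 and 3.54, whereas pairs 5 and 6 gave 1.50 and 1.73. After normalization pairs 1 to 4 gave 3.65, 3.65, 3.34 and 3.95, and pairs 5 and 6 gave 1.72 and 1.95. These smaller differences sat in the pairs whose light-adapted arrays read high. With arrays 5 and 6 of both groups left out, an alternative chosen after the data were seen, the normalized difference of CYN was 3.65 ± 0.259 log2 units. The alternatives without arrays 1 and 2, or without arrays 3 and 4, gave 2.78 and 2.71.

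SIS was set apart by a single pair. Pair 3 differed by 3.61 on the deposited scale, and the other five ran from 1.69 in pair 5 to 2.36 in pair 2. Pair 3 combined the highest recovery reading of SIS, 0.703, with its lowest light-adapted reading, 0.0574. After normalization pair 3 was at 3.90 and the others lay between 2.37 and 3.27. Pair 5 gave the smallest difference of each of the 3 genes on both scales. The median over all features tested did not move that way, at -0.60 in pair 5 and between -0.80 and -0.57 over the 6 pairs on the deposited scale.

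**Figure D3:**
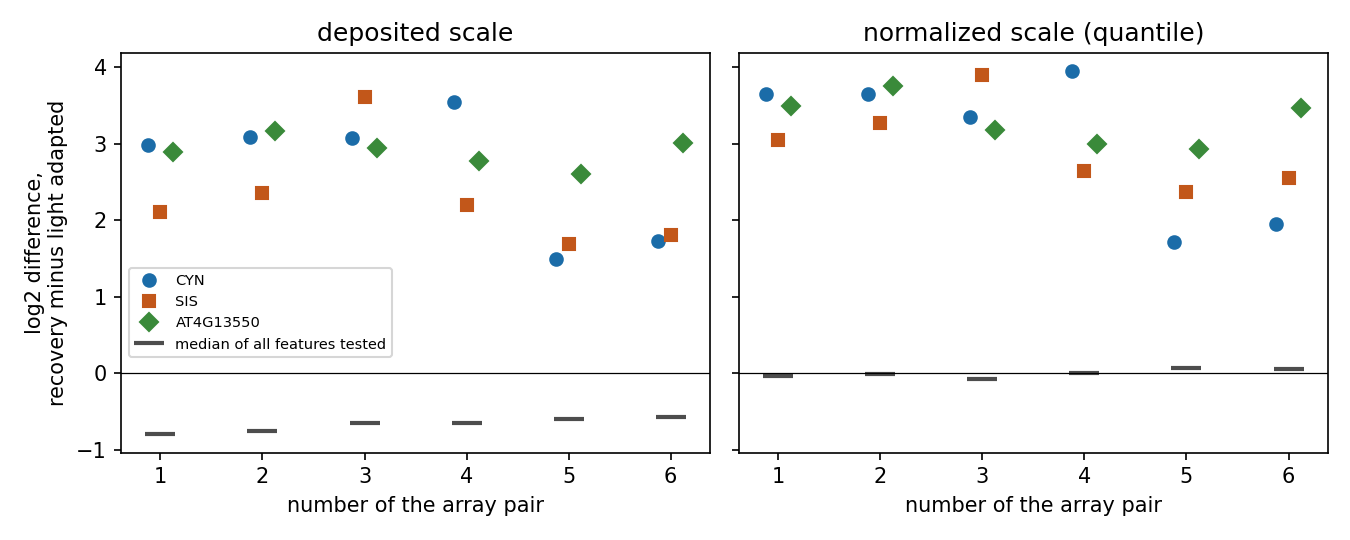
Log2 difference, recovery minus light adapted, of same-numbered arrays for CYN (circles), SIS (squares) and AT4G13550 (diamonds), on the deposited scale (left) and after quantile normalization (right), with the median of all features tested as a dark bar. Every point of the 3 genes lies above 0, CYN is lowest in pairs 5 and 6, and SIS is highest in pair 3.

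One further feature of the array names SIS, together with 2 other genes, so its signal cannot be assigned to any of them. It read between 0.0222 and 0.0811 with a median of 0.0544 on the recovery arrays, against 0.0675, 0.149 and 0.0826 as lowest, highest and median on the light-adapted arrays. As deposited, the recovery array was the dimmer one in 6 of 6 pairs, with a mean log2 difference of -0.85. The median over all features tested was -0.82 on that scale and below 0 in every pair, so this feature lay near the median feature. Its normalized difference was 0.20, against a median of -0.038. For the feature that names SIS alone, the deposited and normalized differences were 2.30 and 2.96.

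The likeness of profiles over the 12 arrays was measured as the root mean square difference of normalized log2 values, each feature centred on its own mean, among 258 single-gene features above 0 on every array. A low value means like profiles. Because the groups differ strongly, the size of the group difference enters the value, together with the pattern within the groups. SIS and AT4G13550 were close, at 0.384 log2 units, with SIS the nearest of these genes to AT4G13550. CYN stood farther off, at 0.643 from AT4G13550 and 0.759 from SIS. The median distance of a gene to AT4G13550 was 1.80. On the deposited scale SIS ranked 2 in nearness to AT4G13550, and AT4G13550 ranked 6 in nearness to SIS.

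Nearest to SIS was THIC, the thiamine synthesis gene of the chloroplast, at 0.342 log2 units, followed by AT4G13550 and by the calmodulin-like gene CML41 at 0.417. THIC read 0.920 ± 0.220 in recovery and 0.227 ± 0.0291 in light-adapted plants, and CML41 read 0.698 ± 0.139 and 0.182 ± 0.0524 (SD, n = 6 each). After SIS, the genes most like AT4G13550 were AT1G17160, which encodes a ribokinase, at 0.434 and CML41 at 0.481. AT1G17160 read 2.11 ± 0.269 in recovery and 0.398 ± 0.0697 in light-adapted plants.

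The genes nearest to CYN were AT4G04370 at 0.567 log2 units, AT1G17160 at 0.601 and AT4G19900 at 0.635. On the deposited scale these genes ranked 5, 2 and 1. AT4G04370 read 0.214 ± 0.0232 in recovery and 0.0729 ± 0.0298 in light-adapted plants, and AT4G19900 read 6.84 ± 0.651 and 1.88 ± 1.45 (SD, n = 6 each). AT4G19900 was also high on light-adapted array 5, at 4.79, whereas light-adapted arrays 1 to 4 lay between 0.975 and 1.36 and array 6 read 1.71. Its light-adapted arrays 5 and 6 averaged 1.55 normalized log2 units above arrays 1 to 4, against 2.14 for CYN, 0.60 for AT4G13550 and 0.41 for SIS. Of the 258 single-gene features, 2 had a larger shift than CYN. Normalized differences of these neighbours were 2.53 for AT4G04370, 2.60 for AT1G17160, 2.05 for AT4G19900, 2.50 for THIC and 2.54 for CML41.

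**Figure D4:**
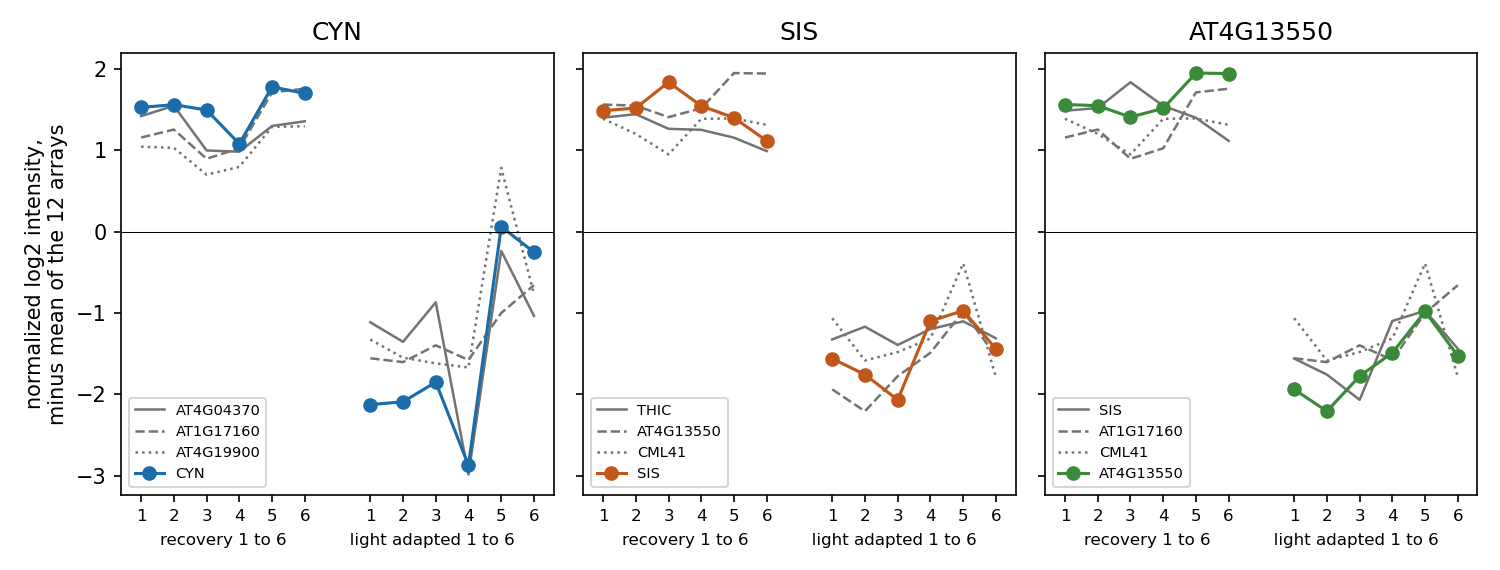
Normalized log2 intensity minus the mean of the 12 arrays for CYN, SIS and AT4G13550 (coloured) and the 3 genes nearest to each (grey), on recovery arrays 1 to 6 and light-adapted arrays 1 to 6. Lines only join the points of a gene within a group; CYN and AT4G19900 are high on light-adapted array 5, and SIS and AT4G13550 have a root mean square difference of 0.384 log2 units.

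Genes with related roles were sought by locus and by the wording of their names, in lists for cyanate, cyanide and carbon dioxide release, salt, drought and abscisic acid, heat and chaperones, lipases, and antioxidant enzymes. Single-gene features held only 4 genes of these lists beyond the 3 described. The cyanate and lipase lists had none, so neither the carbonic anhydrases nor other lipases could be set beside CYN and AT4G13550. Their genes may sit on features with several genes or on unnamed ones.

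None of the 4 passed the limma test at an adjusted p under 0.05, in a comparison where 36.9% of the 2364 features were called, 18.5% as higher and 18.4% as lower. At an unadjusted p under 0.05 the count was 1 of 4, against 46.3% of all features tested. On the deposited scale 9.56% were called higher and 36.8% lower in recovery, 226 and 870 features, against 438 and 435 after normalization and 619 and 345 after median centring. Counted as 3 values against 3, with neighbouring array numbers averaged, 405 features were called in place of 873. The median difference of the 4 genes was 0.086, against -0.038 over all features tested.

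DI21, a drought-induced gene and the other tested member of the salt and drought list beside SIS, read 0.077 at its lowest, 0.098 at the median and 0.132 at its highest in recovery, against 0.149, 0.226 and 0.277 in light-adapted plants. Every recovery array lay below every light-adapted array, as it did for 21.1% of the features tested. Its normalized difference was -0.30 ± 0.194 (SE, n = 6 each, limma adjusted p = 0.259). On the deposited scale it was -1.17 and was called (limma adjusted p = 0.00182), so its call rested on the scale.

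Of the heat and chaperone list, Cpn60beta3 and Cpn60beta4 encode subunits of the chloroplast chaperonin, and CCS encodes the copper chaperone of superoxide dismutase, which also stands in the antioxidant list. Cpn60beta3 read 0.0759 ± 0.0266 in recovery and 0.0852 ± 0.0437 in light-adapted plants (SD, n = 6 each), a normalized difference of 1.06 ± 0.479 (SE, limma adjusted p = 0.104) and a deposited one of 0.031. Adding a pseudocount in place of dropping zeros gave 1.08 and a call as higher (limma adjusted p = 0.0447). Cpn60beta4 was at 0.19 ± 0.882 (limma adjusted p = 0.897) and CCS at -0.016 ± 0.576 (limma adjusted p = 0.988), against -1.0004 and -1.04 on the deposited scale, without a call. Both were dim, with mean intensities of 0.0345 and 0.0489 in recovery and 0.0401 and 0.0900 in light-adapted plants, and each was at 0 on 1 array.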

How the data were processed

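Total RNA of 12 samples was measured on 1-channel expression arrays. The deposited values are intensities, 1 table of 3439 features with a ceiling of 100, which 3 to 8 features reached on every array. They were read as linear because none is negative and exact zeros occur. The authors' array type, background correction, normalization and build are not stated in the labels or the table, so scale and centring stay unknown and no coordinates are printed. Genes were named from the platform annotation through gene identifiers, and 690 of 692 single-gene features matched the reference table. The members, the gene lists and the tests were chosen with earlier results of these data known.

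Values at 0 were set to missing and log2 intensities were quantile normalized, since array medians differed by more than 10%. A test needed 4 or more measured values per group, which 2364 features and 3 of 3 members had. It was run in limma 3.58.1 (R 4.3.3), with Benjamini-Hochberg adjustment over all features, two-sided, without a replicate block. Figures used matplotlib 3.10.9. Named genes were the 3 members, the 3 nearest genes of each, and the tested genes of the lists. In simulated data of 2364 features, 124 of 200 features changed by 2 log2 units were recovered, with 9 false calls among the unchanged ones. The simulated noise was independent between arrays and held no shift between the groups. These counts therefore do not measure false calls in the real data. Same-numbered arrays deviated together (r 0.108 to 0.193 in 6 pairs over 1429 features). Among the 6 arrays of the other group, all 12 arrays correlated best with their own number. Arrays of the same group were not compared in this way. The numbers were therefore taken to pair the arrays from the values, not from the labels. The number of arrays limits the precision.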

Additional observations from a re-analysis of the deposited data

Results flagged for a closer look

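CYN read 2.03 on recovery array 3, with a gap to the next array that took up 0.739 of the group's range, above the limit of Dixon's test for 6 values. After normalization the same array, at 0.60, lay between the other recovery arrays.

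SIS differed by 3.61 on the deposited scale in pair 3, with a gap of 0.650 of the range to the next pair. After normalization its value of 3.90 was still the highest of the 6 pairs and no longer passed. Without recovery array 3 the normalized difference of SIS was 2.84, and without light-adapted array 3 it was 2.87. In all, 32 groups of 6 values were examined and 2 were singled out, where chance alone gives about 1 in 20. The 2 include no neighbouring gene, although AT4G19900 read 4.79 on light-adapted array 5 and no more than 1.71 on the other light-adapted arrays. They are therefore not a full list of uneven readings.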

How the results depend on the processing

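The differences of CYN, SIS and AT4G13550 stayed above 0 in every alternative run. Because the genes were chosen for this rise and their groups did not overlap, the kept sign supports nothing. Leaving out 1 array at a time gave 2.80 to 3.38 for CYN, 2.84 to 3.09 for SIS and 3.22 to 3.47 for AT4G13550. As deposited, CYN was at 2.65, SIS at 2.30 and AT4G13550 at 2.90, and after median centring they were at 3.58, 3.23 and 3.83. CYN moved farthest without arrays 5 and 6 of both groups, to 3.65. A replicate block left the normalized differences at 3.04, 2.96 and 3.31, and on the deposited scale again 2.30 for SIS and 2.90 for AT4G13550. With the block the SEs of the normalized differences were 0.369, 0.254 and 0.197, against 0.461, 0.223 and 0.227 without it. The block changed no call of the list genes within a scale.

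Called features numbered 873 in all, of 2364 tested. Averaging neighbouring array numbers within each group, which leaves 3 values against 3, gave 405 (199 higher, 206 lower). As deposited there were 226 higher and 870 lower, and with the block 236 and 895. Leaving out arrays 1 and 2, or 3 and 4, of both groups left 281 and 284 lower calls, against 435. These runs tested only 1553 and 1656 features, so fewer calls there need not mean a smaller share. Leaving out 1 array gave 781 to 858 calls, of 2115 to 2299 features tested. Among the 4 list genes, 1 was called higher with the pseudocount of 0.01 (Cpn60beta3), and 1 lower as deposited, with and without the block (DI21). The adjusted p of DI21 ran from 0.00182 to 0.674 over its alternatives. Of the 3 nearest genes, 2, 2 and 3 recurred on the deposited scale for CYN, SIS and AT4G13550. Signal over background is not known for any feature, which limits what the dim ones can show.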
